A study of Sus scrofa with 8 samples.

Results

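The histone deacetylases are the zinc-dependent enzymes that take acetyl groups off lysines, and their RNA was examined in pig heart. The members were the rows of the deposited expression table whose gene name was HDAC1 to HDAC9 or HDAC11. Of these 10 symbols, 8 were found, in 9 of the 18975 rows of the table: HDAC2, HDAC3, HDAC4, HDAC5, HDAC6, HDAC7, HDAC8, and HDAC9 in 2 rows. HDAC1 was not analysed here. HDAC11 carried no gene name in the table, and its row was found through its Ensembl identifier, so its values are given beside the members but outside their count.

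Male Tibetan pigs and male Yorkshire pigs, 6 months old, were sampled at 3000 m (TH, Tibetan highland, and YH, Yorkshire highland) and at 100 m (TL and YL, the lowland groups of the same breeds). Each group had 2 mRNA-seq libraries of heart, and each library held RNA pooled from 4 pigs, so 2 libraries of a group differ as pools do, and the spread between animals was not measured. All pigs were of 1 sex and 1 age. The labels gave breed, altitude and replicate number, and the descriptions of YL1 and YL2 pointed to the table of TL although title and breed named YL.

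Acetyl groups on histone tails loosen the packing of chromatin, and histone deacetylases remove them. Class I enzymes (HDAC1, HDAC2, HDAC3, HDAC8) sit mostly in the nucleus, where most of them work inside corepressor complexes. Class IIa enzymes (HDAC4, HDAC5, HDAC7, HDAC9) have little catalytic activity of their own, bind MEF2 transcription factors, and leave the nucleus when kinases phosphorylate them and 14-3-3 proteins hold them in the cytoplasm. In rodent heart, class IIa enzymes are known as brakes on hypertrophic growth. HDAC6 (class IIb) works in the cytoplasm on tubulin, and HDAC11 is the only class IV enzyme.

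Between 15687144 (TH2) and 26721951 (TH1) reads per library fell on genes. The heart label was checked with cardiomyocyte markers: the 11 rows found for the list, among them those of sarcomere genes, were at 1 FPKM or more in every library and summed to between 18177 (YL2) and 46339 FPKM (TH1). FPKM is the number of fragments scaled to transcript length and sequencing depth, so levels of different genes can be compared in it as far as the length used is right. 1 library stood apart. In YL2 the 17 rows of a kidney marker list summed to 9001 FPKM, against 1.58 to 18.1 FPKM in the other 7 libraries, and 0 of the 17 rows were at 0 in it. SLC5A2, a glucose transporter of the renal tubule, had 4023 FPKM in YL2, while no other library passed 1.12. Values that rest on YL2 are therefore also given without it. TH1 had the highest FPKM sum, 2.13 times that of the next library (YL1). In whole tissue, fewer cells of a type and less RNA per cell cannot be told apart.

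By median FPKM over the 8 libraries, HDAC5 stood highest at 24.5, followed by HDAC3 at 15.0, HDAC7 at 13.7, HDAC2 at 11.8, HDAC6 at 4.0, the longer HDAC9 row at 2.78, HDAC4 at 2.73, HDAC8 at 1.48 and the shorter HDAC9 row at 1.18. Some steps of this order held in every library: HDAC5 was above HDAC3 in 8 of 8, and HDAC4 above HDAC8 in 8 of 8. Others did not hold, since HDAC3 was above HDAC7 in 5 of 8 libraries and HDAC7 above HDAC2 in 4 of 8. The HDAC7 row spans only 2002 bases, and how much of the gene it covers was not examined. HDAC2 was above HDAC6 in 7 of 8, with YL2 as the exception. The longer HDAC9 row was above HDAC4 in 3 of 8, so these neighbours did not differ beyond their spread. The median of HDAC5 was thus several times that of HDAC4, its close relative in class IIa.

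**Figure D1:**
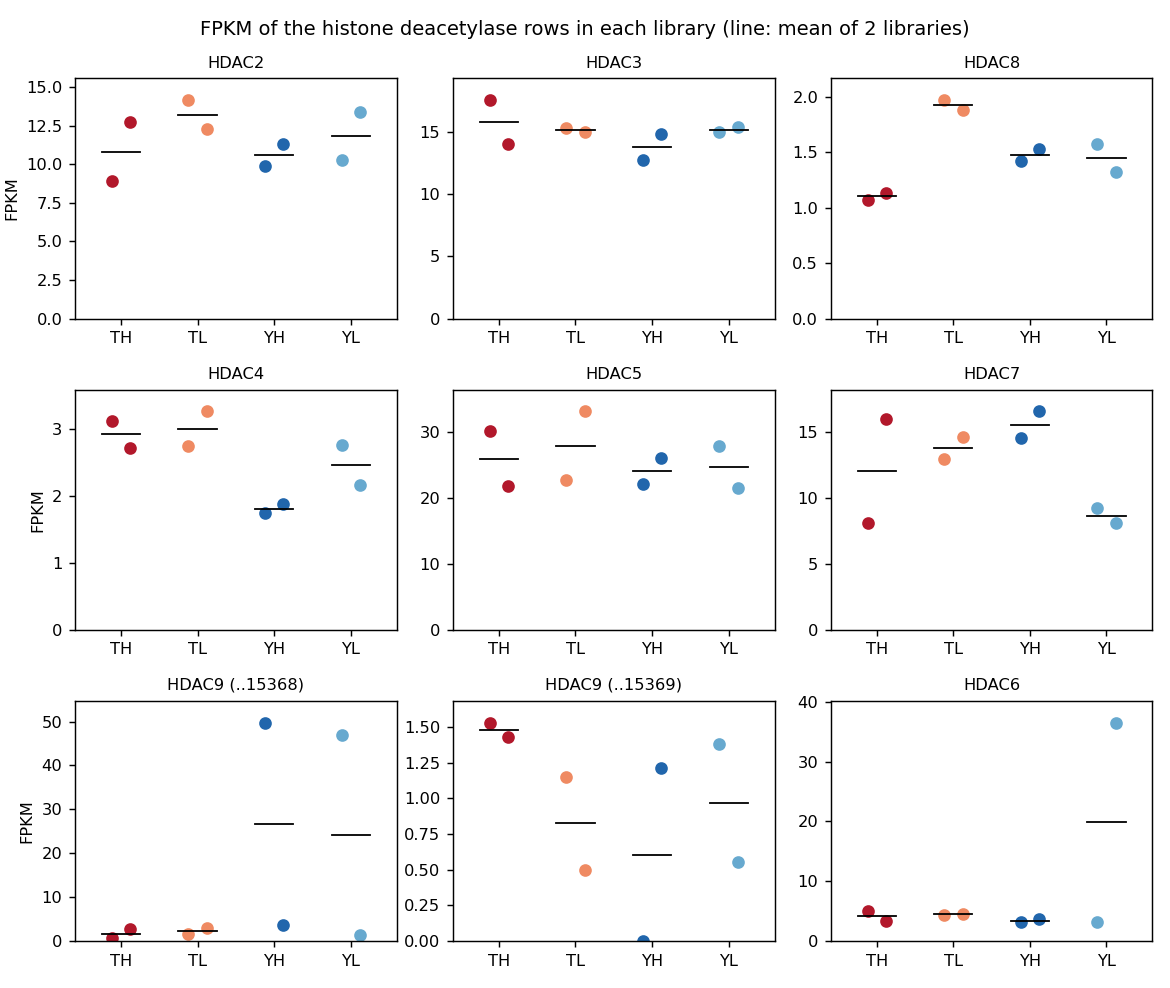
FPKM (vertical axes, each from 0) of the 9 histone deacetylase rows in the 4 groups (horizontal axes), 1 panel per row; points are libraries, replicate 1 to the left of replicate 2, and the line is the mean of 2 libraries. HDAC2, HDAC3 and HDAC5 vary little between libraries, HDAC6 is at 36.5 FPKM in YL2 alone, and the longer HDAC9 row is at 49.8 FPKM in YH1 and 47.0 in YL1 and low elsewhere.

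Summed over the 7 genes without HDAC9, the class I genes held 34.4% to 42.3% of the FPKM in 7 libraries, class IIa 51.8% to 60.3%, and HDAC6 4.44% to 6.66%. In YL2 the same shares were 30.5%, 32.4% and 37.1%. The split between classes was thus similar in all libraries except YL2, where HDAC6 alone took more than either of the other classes.

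None of the 9 rows passed the threshold in any comparison. In a limma fit of all 8 libraries on log2(FPKM + 1), the threshold was a Benjamini-Hochberg adjusted p under 0.01, over the 11913 genes tested, together with an absolute log2 fold change above 1. A comparison written TH to YH gives TH minus YH, so a positive value is higher in the group named first. From TH to YH 0 of 9 rows were called (background 0.0336% of genes tested), from TL to YL 0 of 9 (0.00839%), from TH to TL 0 of 9 (0.0504%) and from YH to YL 0 of 9 (0%). For the interaction, in which the altitude difference of Yorkshire pigs is subtracted from that of Tibetan pigs, 0 of 9 had an adjusted p under 0.01 (0.0336%). So few genes were called at all that a count of 0 says little about the family. At an unadjusted limma p under 0.05 the rows numbered 0 from TH to YH (16.2% of all genes), 0 from TL to YL (8.94%), 1 from TH to TL (HDAC8, 11.3%), 1 from YH to YL (HDAC7, 5.97%) and 0 for the interaction (10.9%). The same fit on the scaled reads, a measure of read number that the authors deposited beside FPKM, also called 0 rows, and HDAC7 from YH to YL was the 1 row with an unadjusted p under 0.05 (all genes 15.1% from TH to YH, 8.74% from TL to YL, 10.5% from TH to TL and 6.08% from YH to YL).

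The median log2 fold change of the 9 rows was close to that of all genes tested in each comparison. It was 0.09 from TH to YH (all genes -0.03), 0.16 from TL to YL (0.02), -0.09 from TH to TL (-0.02) and -0.13 from YH to YL (0.03). Without YL2 it was 0.09 from TL to YL and -0.11 from YH to YL, again with 0 rows called. Other single libraries moved it as well. Without TH2 it was 0.32 from TH to YH and 0.04 from TH to TL, where the sign turned. From TH to YH it was 0.02 without TH1, and from TL to YL 0.33 without YL1. With every library brought to 1 FPKM sum, the median from TH to YH became -0.63 for the rows and -0.50 for all genes, so levels of TH against YH shift together with that choice. The groups did not overlap in 4 of 9 rows from TH to YH (52.5% of all genes tested), 2 of 9 from TL to YL (41.5%), 2 of 9 from TH to TL (48.5%) and 3 of 9 from YH to YL (36.3%). These shares were near or below the background. The shorter HDAC9 row, with 0 to 5 reads a library, enters these medians and counts. Without it the medians over 8 rows were 0.05, 0.16, -0.17 and -0.08 in the same order, and 3, 2, 1 and 3 of 8 rows did not overlap.

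**Figure D2:**
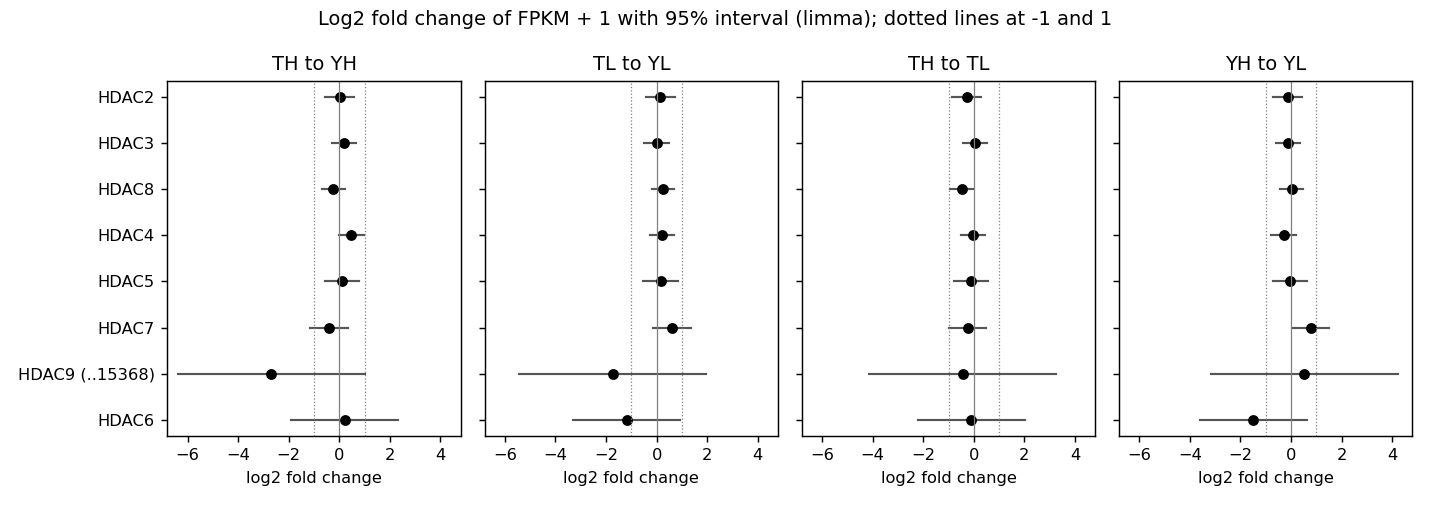
Log2 fold change on the log2(FPKM + 1) scale (horizontal axes; points) with its 95% interval from limma (lines) for 8 of the 9 rows in the 4 comparisons; positive is higher in the group named first. Most intervals cross 0, the exceptions being HDAC8 from TH to TL and HDAC7 from YH to YL, and the intervals of HDAC6 and the longer HDAC9 row are the widest. The shorter HDAC9 row, which rests on 0 to 5 reads a library, is not drawn.

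Among class I genes, HDAC3 was the most even of the family. HDAC3, the catalytic subunit of the NCoR and SMRT corepressor complexes (Ensembl ENSSSCG00000014388, Sscrofa10.2 chromosome 2, 149475381 to 149490054), was at 17.5 and 14.0 FPKM for TH, 15.3 and 15.0 for TL, 12.7 and 14.8 for YH, and 14.9 and 15.3 for YL. Its coefficient of variation over the 8 libraries was 8.98%, where the median of all genes tested was 30.8%. From YH to YL the groups did not overlap, with YH lower, by a margin smaller than the gap between YH1 and YH2. Its log2 fold changes lay between -0.13 (YH to YL, or -0.11 without YL2) and 0.18 (TH to YH, or -0.63 with every library brought to 1 FPKM sum) in the 4 comparisons. With 1 library left out, HDAC3 ranged from -0.23 to -0.03 from YH to YL and from 0.02 to 0.33 from TH to YH.

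HDAC2, a subunit of the Sin3, NuRD and CoREST complexes (ENSSSCG00000004432, chromosome 1, 89928272 to 89963141), was at 8.93 and 12.7 FPKM for TH, 14.1 and 12.3 for TL, 9.90 and 11.3 for YH, and 10.3 and 13.4 for YL. The group means were 10.8 FPKM for TH, 13.2 for TL, 10.6 for YH and 11.8 for YL, with overlapping libraries in each breed. The log2 fold change from YH to YL was -0.14 with all libraries and 0.04 without YL2, so its direction in FPKM rested on YL2. In scaled reads, at 580 and 495 for YH and 632 and 780 for YL, the groups did not overlap, and the value was -0.39, or -0.24 without YL2. From TH to TL the log2 fold change was -0.28 (SE 0.25, limma adjusted p 0.718). It was -0.05 without TH1, the lowest library, so TH1 set most of that difference.

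HDAC8, an X-linked class I enzyme known for deacetylating the cohesin subunit SMC3 (ENSSSCG00000021200, chromosome X, 66293676 to 66346577), was the lowest of the class. It was at 1.07 and 1.13 FPKM for TH, 1.97 and 1.89 for TL, 1.43 and 1.53 for YH, and 1.58 and 1.33 for YL. TH lay below and TL above all other libraries. From TH to TL the log2 fold change was -0.48 (SE 0.19, limma p 0.0406, adjusted p 0.411, 0.225 to 1 over the alternatives), with both TH libraries below both TL libraries. HDAC8 was also lower in TH than in YH (-0.24) and higher in TL than in YL (0.26, or 0.18 without YL2), without overlap and with adjusted p of 0.560 and 0.743 in limma. With every library brought to 1 FPKM sum, the value from TL to YL was 0.0053. The interaction was -0.50 (SE 0.27, limma adjusted p 0.537), or -0.42 without YL2, so a different effect of altitude in the 2 breeds was not shown.

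Few reads stood behind HDAC8. They numbered 23 and 23 for TH, 48 and 53 for TL, 35 and 40 for YH, and 30 and 45 for YL. The exact 95% Poisson interval of 23 reads runs from 14.6 to 34.5 and that of 48 reads from 35.4 to 63.6, counting error only. As scaled reads, which take depth into account, the values were 26.6 and 27.1 for TH and 48.2 and 45.7 for TL, and the log2 fold change was -0.79 (SE 0.39, limma p 0.0818). As a share of HDAC3 in the same library, a measure chosen after the values were seen and free of library scaling, HDAC8 was at 6.13% and 8.09% in TH and at 12.9% and 12.6% in TL.

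Among class IIa genes, HDAC5 was the highest member of the family. HDAC5, a signal-responsive repressor of MEF2 (ENSSSCG00000017366, chromosome 12, 19364144 to 19375391), was at 30.2 and 21.8 FPKM for TH, 22.7 and 33.2 for TL, 22.1 and 26.2 for YH, and 27.9 and 21.6 for YL. All 4 groups overlapped, and 1318 to 2773 reads a library stood behind these values. The log2 fold changes ranged from -0.09 (TH to TL) to 0.16 (TL to YL, or -0.02 without YL2), smaller than the spread within groups, and each turned in sign with 1 library of its groups left out. From TH to YH the value was 0.09 with a 95% interval from -0.58 to 0.76, turning to -0.08 in scaled reads and to -0.77 with every library brought to 1 FPKM sum.

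HDAC4, also a repressor of MEF2 and a target of CaM kinase II (ENSSSCG00000024777, chromosome 15, 152921243 to 153035111), was at 3.12 and 2.72 FPKM for TH, 2.75 and 3.26 for TL, 1.74 and 1.88 for YH, and 2.76 and 2.17 for YL. YH held the 2 lowest libraries of the 8. From TH to YH the log2 fold change was 0.48 (SE 0.20, limma p 0.0520, adjusted p 0.311, 0.175 to 0.907 over the alternatives), higher in TH in both libraries, but it was -0.09 with every library brought to 1 FPKM sum. From YH to YL it was -0.30 (SE 0.20, limma adjusted p 0.784) with all libraries, -0.42 without YL2 and -0.18 without YL1. In the scaled reads YH stood at 327.6 and 387, with 538 and 496 for TH and 523 and 380 for YL, and there YH2 was above YL2. As a share of HDAC3 the YH libraries were at 13.7% and 12.7%, those of TH at 17.8% and 19.4%, those of TL at 18.0% and 21.8% and those of YL at 18.5% and 14.2%, so YH was lowest on this measure too.

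HDAC7, the class IIa enzyme known for its role in endothelial cells (ENSSSCG00000027859, chromosome 5), was the member with the largest difference between the Yorkshire groups whose libraries did not overlap. Its row spans only 2002 bases, 81391565 to 81393566, and holds 129 to 411 reads a library. It was at 8.12 and 16.0 FPKM for TH, 12.9 and 14.6 for TL, 14.6 and 16.6 for YH, and 9.22 and 8.10 for YL. Both YL libraries were below all libraries of TL and YH, and TH1 was as low as YL2.

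From YH to YL the log2 fold change of HDAC7 was 0.78 (SE 0.31, 95% interval 0.04 to 1.52, limma p 0.0417, adjusted p 0.784, 0.224 to 1 over the alternatives). It was 0.69 without YL2, and 0.72 with median-ratio scaling of the libraries (limma p 0.0910). From TL to YL it was 0.61 (SE 0.31, limma p 0.0900, adjusted p 0.632) and 0.53 without YL2, and 0.25 with every library brought to 1 FPKM sum. YL2 was the library that carried kidney markers, and the values without it rest on YL1 alone in the YL group. The part of kidney markers in the HDAC7 difference was not tested. From TH to YH the value was -0.41 (SE 0.31, limma adjusted p 0.539), and 0.04 without TH1. The interaction was -1.02 (SE 0.44, limma p 0.0537, adjusted p 0.459) and became -0.57 without TH1 and -0.94 without YL2.

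Marker lists of several cell types had medians above 0 from YH to YL, as HDAC7 did, with 0 rows called. The 10 rows found for a list of 12 endothelial genes summed to 233 and 249 FPKM for TH, 219.5 and 233 for TL, 210.1 and 231 for YH, and 156 and 141 for YL. From YH to YL 10 of 10 had a log2 fold change above 0, 8 did not overlap (21.9% of all genes were higher without overlap), and their median was 0.53, or 0.50 without YL2. 0 of 10 were called by limma, and 2 had an unadjusted p under 0.05 (5.97% of all genes). PECAM1, an adhesion molecule of endothelial cells, was at 56.9 and 65.6 FPKM for YH and at 52.0 and 35.7 for YL. In the same comparison 9 of 9 leukocyte rows were above 0 (8 without overlap, 5 with an unadjusted p under 0.05, median 0.80), as were 10 of 11 fibroblast rows (8 without overlap, 0 under 0.05, median 0.45), 6 of 6 smooth muscle rows (3 without overlap, 2 under 0.05, median 0.62, or 0.41 without YL2) and 9 of 11 cardiomyocyte rows (0 without overlap, 0 under 0.05, median 0.31, or -0.31 without YL2). From TL to YL, where HDAC7 was also higher in the first group, the medians were 0.66 for endothelial rows (0.41 without YL2), 0.99 for fibroblast rows (1.34), 0.87 for smooth muscle rows (0.55), 0.54 for cardiomyocyte rows (-0.04) and -0.00 for leukocyte rows (0.03). The sums did not all follow: the leukocyte rows summed to 25.1 and 22.2 FPKM for YL and to 23.1 and 21.2 for TL. The smooth muscle sum of YL1, 3637 FPKM, was above those of all TL and YH libraries, but DES held 3510 of it. TAGLN was at 40.4 in YL1, below the TL and YH libraries (60.8 to 98.4), and CNN1 at 29.8 lay among them (21.0 to 61.7). In TH1, where HDAC7 was at 8.12, the endothelial list split. 5 of its 10 rows were at their lowest of the 8 libraries there (VWF, TEK, KDR, EMCN and ESAM) and 3 at their highest (PECAM1, EGFL7 and CLDN5), so the sum of 233 FPKM in TH1 hides a mixed list. VWF was at 1.07 in TH1 and at 6.42 to 25.9 elsewhere, and PECAM1 at 96.8 in TH1 and at 35.7 to 84.5 elsewhere. The part of any of these markers in the HDAC7 difference was not tested.

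**Figure D3:**
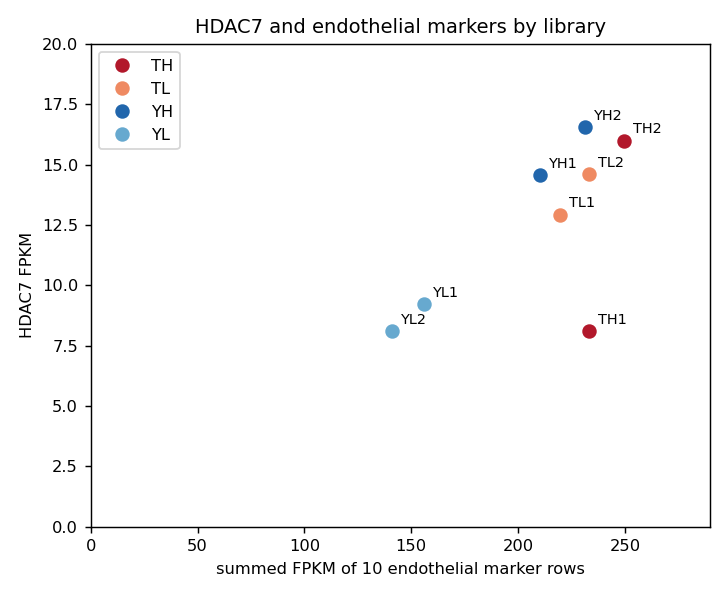
HDAC7 FPKM (vertical axis) against the summed FPKM of 10 endothelial marker rows (horizontal axis), both axes from 0, 1 point per library, coloured by group. The YL libraries are low on both axes (sums of 156 and 141 FPKM), and TH1 is low in HDAC7 but not in the sum, although 5 of the 10 rows are lowest there.

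HDAC9, another partner and repressor of MEF2, was listed in 2 rows of chromosome 9 that lie 51344 bases apart, and its 2 deposited measures did not go together. The longer row (ENSSSCG00000015368, 96806465 to 96960969) was at 0.561 and 2.61 FPKM for TH, 1.6 and 2.96 for TL, 49.8 and 3.62 for YH, and 47.0 and 1.37 for YL. YH1 and YL1 stood far above the other 6 libraries, each with a low partner in its own group. In scaled reads the same row was at 17.3 and 60.1 for TH, 46.2 and 68.1 for TL, 62.7 and 104 for YH, and 55.3 and 33.4 for YL. On that scale YH2 was the highest library, TH1 the lowest, and YH1 and YL1 lay within the range of the others.

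The 2 units therefore gave HDAC9 different levels in these 2 libraries. The FPKM per 100 scaled reads was 3.24 to 4.34 in 6 libraries, 79.4 in YH1 and 84.9 in YL1. At the median of those 6 libraries, 3.79, the scaled reads of YH1 would stand for 2.37 FPKM and those of YL1 for 2.09. The highest of these ratios was 26.2 times the lowest, and for the other rows with reads in every library it was 1.06 (HDAC3) to 1.55 times (HDAC2). Such a gap between the units was rare. The ratio was also divided, in each library, by its median over the 11236 genes with at least 10 reads in every library. After this step the highest exceeded the lowest over 5-fold in 8 genes and over 10-fold in 4, with a median over all genes of 1.25-fold, and it was 27.5-fold for this row. The HDAC9 row covered many bases with few reads, 15 to 121 a library, and why the FPKM of YH1 and YL1 differ from their reads was not tested.

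**Figure D4:**
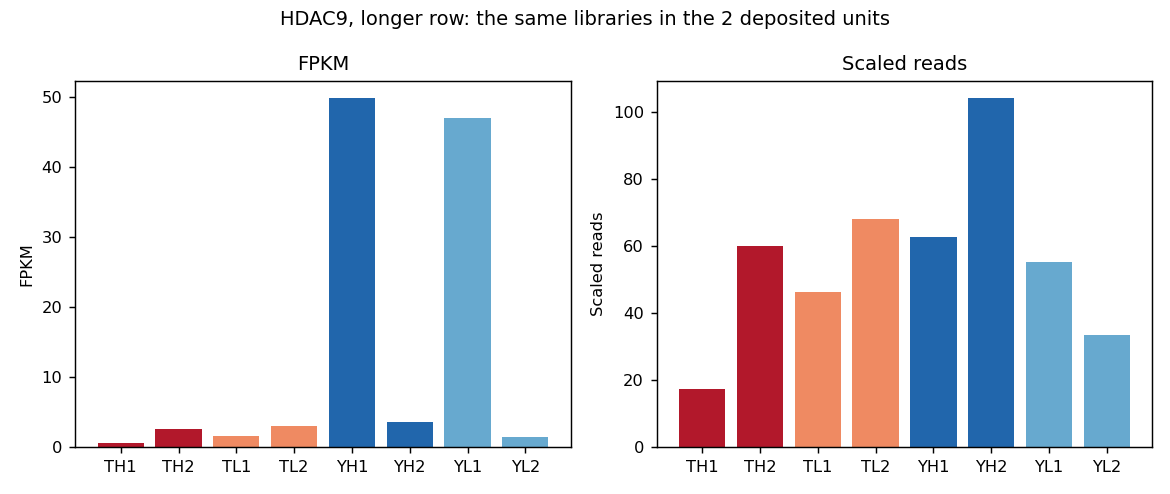
The longer HDAC9 row in the 8 libraries (horizontal axes), as FPKM (left, vertical axis) and as scaled reads (right, vertical axis), bars from 0, coloured by group. YH1 and YL1 are at 49.8 and 47.0 FPKM, while their scaled reads, 62.7 and 55.3, lie among those of the other libraries.

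The comparisons of HDAC9 differed accordingly between the units. From TH to YH the log2 fold change of the longer row was -2.69 (SE 1.56, limma p 0.128, adjusted p 0.434, 0.0903 to 0.891 over the alternatives) in FPKM and -1.29 in scaled reads, with both TH libraries below both YH libraries in each unit. Without YH1 the FPKM value was -0.96, and without YH2 it was -4.42. From TL to YL it was -1.73 (SE 1.56, limma adjusted p 0.780) in FPKM and 0.38 in scaled reads, so the sign differed. Without YL2 these values were -3.90 and 0.02. From YH to YL it was 0.52 (SE 1.56, limma adjusted p 0.946) in FPKM and 0.89 in scaled reads, and without YL2 -1.65 and 0.54. The shorter row (ENSSSCG00000015369, 97012314 to 97018729) held 0 to 5 reads a library. It was at 1.53 and 1.43 FPKM for TH, 1.15 and 0.501 for TL, 0 and 1.21 for YH, and 1.38 and 0.555 for YL. Reads this few cannot show a difference between groups, so its fold change is not described.

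The 3 genes whose log2(FPKM + 1) followed the longer HDAC9 row most closely over the 8 libraries, of 5888 genes compared, were TNFSF10, a death receptor ligand (Pearson r 0.975), CTSD, a lysosomal protease (0.971), and SNORA19 (0.964). TNFSF10 was at 33.3 FPKM in YH1 and 43.3 in YL1, and at 8.69 to 15.4 in the others. SNORA19 was listed above 0 in YH1 and YL1 only and had at most 2 reads a library. With 8 libraries, 2 of which set the pattern, these values describe YH1 and YL1.

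HDAC6, the cytoplasmic tubulin deacetylase of class IIb (ENSSSCG00000025545, chromosome X, 47858845 to 47885601), was even in 7 libraries and high in 1. It was at 4.92 and 3.40 FPKM for TH, 4.38 and 4.52 for TL, 3.20 and 3.61 for YH, and 3.10 and 36.5 for YL. YL2 was 7.42 times the highest of the others and 9.43 times their mean. The scaled reads showed the same, 5647 in YL2 and 519 to 752 elsewhere, from 7944 and 385 to 826 reads. Of all genes tested, 1.18% were over 7 times as high in YL2 as in every other library.

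The difference of HDAC6 between YL and the other groups thus rested on YL2. From TL to YL the log2 fold change was -1.19 (SE 0.89, limma adjusted p 0.747), with overlapping libraries, and 0.41 without YL2. From YH to YL it was -1.49 (SE 0.89, limma adjusted p 0.784), and 0.10 without YL2. The interaction was 1.40 (SE 1.26, limma adjusted p 0.675), and -0.20 without YL2. With YL1 left out instead, YL2 stood alone for its group, and HDAC6 passed the threshold in these 3 comparisons (log2 fold changes -2.78, -3.09 and 3.00, limma adjusted p 0.00249, 0.00176 and 0.00786, with the lone library taken to vary like the other groups).

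Other members differed less, or in the other direction, in YL2. On the log2(FPKM + 1) scale YL2 differed from the mean of the other 7 libraries by 2.96 for HDAC6, and by -1.52 for the longer HDAC9 row, -0.60 for HDAC7, -0.26 for HDAC5, 0.23 for HDAC2 and 0.04 for HDAC3. The value of the longer HDAC9 row rested on the high YH1 and YL1, was -0.37 without them (an alternative chosen after the values were seen), and TH1 at 0.561 FPKM lay below YL2 at 1.37. The kidney marker rows differed by 1.43 (NPHS1) to 11.6 (SLC5A2), and their part in the HDAC6 value of YL2 was not tested. Genes beside HDAC6 on chromosome X were not all high in YL2. TIMM17B, 15298 bases away, was at 25.7 FPKM in YL2 and 26.7 to 43.7 elsewhere, and GRIPAP1, 12249 bases away, at 5.68 and 4.29 to 6.79. PCSK1N, 3398 bases away, was at 4.19 in YL2 and 1.86 to 3.52 elsewhere, and ERAS, 1495 bases away, at 2.56 and at most 0.557. PQBP1, 22018 bases away, was at 22.1 and 21.2 to 52.8, and SLC35A2, 27223 bases away, at 4.56 and 2.49 to 4.90. No other row of the table overlapped a member's locus.

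**Figure D5:**
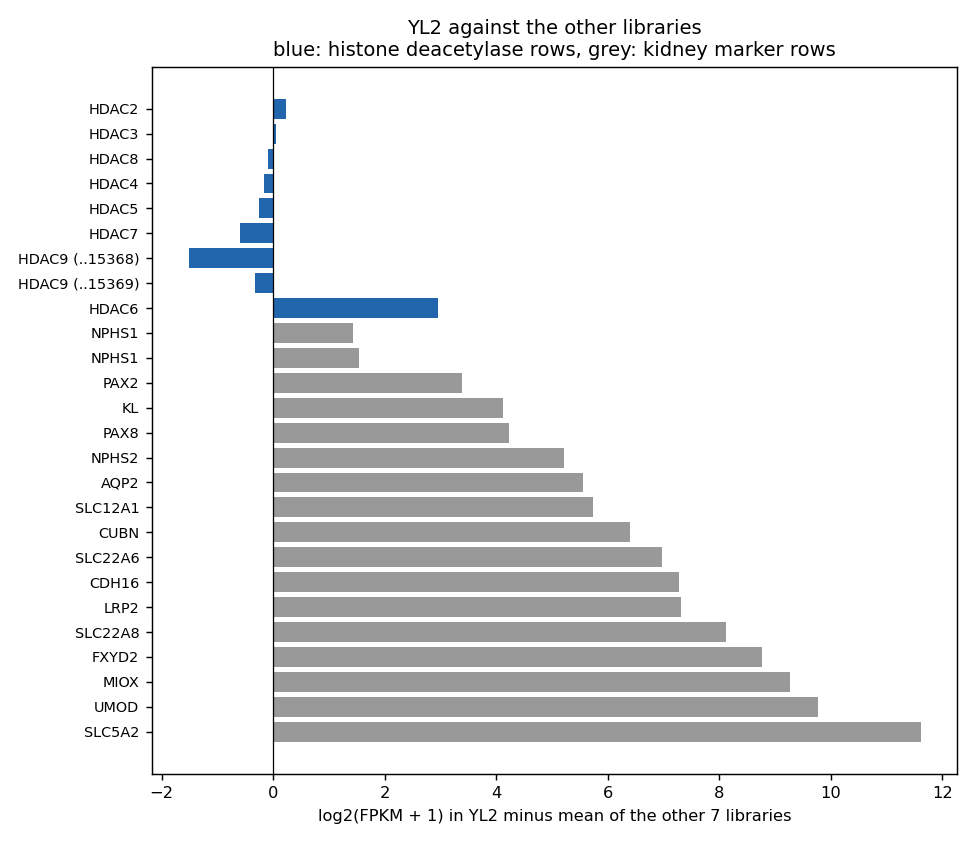
Difference between YL2 and the mean of the other 7 libraries on the log2(FPKM + 1) scale (horizontal axis; bars from 0) for the 9 histone deacetylase rows (blue) and 17 kidney marker rows (grey). HDAC6, at 2.96, is the only histone deacetylase row above 1, and the kidney rows range from 1.43 to 11.6. The bar of the longer HDAC9 row, at -1.52, rests on the high YH1 and YL1.

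The 3 genes most like HDAC6 over the 8 libraries were also highest in YL2: the row named CRY (Pearson r 0.992), ALDH9A1, an aldehyde dehydrogenase (0.992), and SAT2, an acetyltransferase of small amines (0.992). ALDH9A1 was at 142 FPKM in YL2 and at 16.6 to 25 in the others. These correlations were set by the single library YL2.

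HDAC11, the class IV enzyme (ENSSSCG00000028031, chromosome 13, 78364386 to 78381809), was at 0.204 to 0.567 FPKM in 7 libraries and at 1.45 in YL2. It had 4 to 12 reads in the 7 libraries and 43 in YL2, and the filter of 1 FPKM in 2 libraries kept it out of the test. HDAC10, a class IIb polyamine deacetylase outside the member list (ENSSSCG00000000971, chromosome 5, 110662698 to 110668163), was at 5.85 and 4.09 FPKM for TH, 4.29 and 4.08 for TL, 3.78 and 3.98 for YH, and 2.99 and 6.11 for YL. YL1 was its lowest and YL2 its highest library.

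The partners of the deacetylases were tested from lists, and limma called 0 of them. Of 37 rows tested for subunits of the Sin3, NuRD, CoREST, NCoR and MiDAC complexes, limma called 0 in each comparison, and 3 had an unadjusted p under 0.05 from TH to YH (16.2% of all genes), 0 from TL to YL (8.94%), 3 from TH to TL (11.3%), 0 from YH to YL (5.97%) and 2 for the interaction (BRMS1 and MBD3, 10.9%). The 3 highest were SAP18, a Sin3-associated protein, RBBP7, a histone chaperone, and MBD3, a NuRD subunit. MBD3 was at 31.0 and 33.5 FPKM for TH, 22.1 and 21.8 for TL, 21.0 and 24.3 for YH, and 27.2 and 25.3 for YL. TH was above all other libraries, with a log2 fold change of 0.49 from TH to YH (SE 0.19, limma p 0.0376, adjusted p 0.284) and 0.53 from TH to TL (limma p 0.0277, adjusted p 0.360). These values rest on the deposited FPKM. With every library brought to 1 FPKM sum, the median of all genes shifted by -0.47 from TH to YH and by -0.25 from TH to TL.

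The list of class IIa partners held MEF2 factors, SRF, MYOCD, 14-3-3 proteins, CaM and salt-inducible kinases, protein kinase D, STK11, MARK2, MARK3, PPP2CA, PPP2R1A and DNAJB5. It was tested in 27 rows. 0 were called by limma in any comparison. At an unadjusted p under 0.05, 4 were higher and 0 lower from TL to YL (8.94% of all genes either way), 3 higher and 1 lower from TH to YH (16.2%), 1 higher and 3 lower from TH to TL (11.3%), 1 higher and 0 lower from YH to YL (5.97%), and 1 higher and 4 lower for the interaction (10.9%). The median log2 fold changes were 0.26 from TL to YL (0.12 without YL2), -0.01 from TH to YH, -0.10 from TH to TL, 0.12 from YH to YL (0.06 without YL2) and -0.35 for the interaction (-0.31 without YL2). CAMK2D, the main CaM kinase II of heart muscle, was at 144 and 122 FPKM for TH, 132 and 149.8 for TL, 148 and 189 for YH, and 144 and 61.6 for YL. Only YL2 stood apart. YWHAE and YWHAH, both 14-3-3 proteins, were the other 2 of the 3 highest, and YWHAE was at 123 (TH1) to 252 FPKM (YH2).

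The sirtuins, deacetylases that use NAD instead of zinc, were tested in 7 rows, and 0 were called in any comparison. From TH to YH 1 was higher and 1 lower at an unadjusted limma p under 0.05 (16.2% of all genes). The higher one, named after its values were seen, was SIRT6, a nuclear deacetylase, at 7.05 and 4.90 FPKM for TH and 3.50 and 3.82 for YH, a log2 fold change of 0.57 (limma p 0.0410, adjusted p 0.292), or 0.34 without TH1. The lower one was SIRT5, a mitochondrial desuccinylase, at 7.80 and 7.63 FPKM for TH and 13.9 and 11.2 for YH, a log2 fold change of -0.63 (limma p 0.0221, adjusted p 0.241). Both rest on the deposited FPKM. With 1 FPKM sum the median of all genes from TH to YH shifted by -0.47. SIRT2 was at 21.4 to 31.9 FPKM over the 8 libraries, a level like that of HDAC5. SIRT3 was at 11 to 29.4, or 11 to 19.2 without YL2.

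Enzymes with the opposite activity, the lysine acetyltransferases and their subunits, were tested in 13 rows with 0 calls, and the bromodomain readers of acetyl-lysine in 11 rows with 0 calls. Among acetyltransferases 1 row had an unadjusted limma p under 0.05 from TH to YH (16.2% of all genes), 0 from TL to YL (8.94%), 1 from TH to TL (11.3%), 0 from YH to YL (5.97%) and 1 for the interaction (10.9%). Each time it was KAT2B, an acetyltransferase also known as PCAF, at 4.41 and 10.7 FPKM for TH, 16.2 and 14.4 for TL, 16.0 and 17.7 for YH, and 10.4 and 9.28 for YL. TH was below TL and YH, with log2 fold changes of -1.16 from TH to YH (SE 0.36, limma p 0.0144, adjusted p 0.210) and -1.03 from TH to TL (limma p 0.0239, adjusted p 0.350). Without TH1, the lowest library, these KAT2B values were -0.60 and -0.47, and without TH2 -1.72 and -1.59. The interaction of KAT2B was -1.75 (limma p 0.0108, adjusted p 0.350). TADA3, a subunit of acetyltransferase complexes, was at 12.5 to 19.3 FPKM, and HAT1, which acetylates newly made histone H4, at 8.87 to 12.6. The readers had 0 rows at an unadjusted limma p under 0.05 in each of the 4 comparisons and 1 for the interaction (10.9% of all genes), BRPF3, with 0.81 (limma p 0.0257, adjusted p 0.395), named after its values were seen. The 3 highest readers were BRD2, at 24.4 to 32.6 FPKM, BRD3, at 10.7 to 17.3, and BRD7, at 14.6 to 18.4.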

How the data were processed

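RNA of heart was sequenced as 8 libraries, 2 per group, each of RNA pooled from 4 pigs. TopHat2 2.0.9 was used by the authors to align reads to Sscrofa10.2 before they computed FPKM, and the submitters' processing notes also name Bowtie 0.12.5 and DESeq 1.10.1. The deposited FPKM were used for levels and tests, except where scaled reads are named. The second deposited value of each library is a signal, the read number of a gene scaled by 1 factor per library (scaled reads). Dividing it by the smallest step of its library gave whole reads, within 0.1 read, for 99.8% of values up to 20 reads, and reads in the text were obtained in this way. Another 8 columns, group means and ratios, were not used.

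The tests used limma 3.58.1 (R 4.3.3) on log2(FPKM + 1), with a trend on the mean (4 residual and 2.83 prior degrees of freedom), over the 11913 genes at 1 FPKM or more in at least 2 libraries, with Benjamini-Hochberg adjustment. The pseudocount of 1 shrinks the fold changes of low genes. An exact permutation test of 2 libraries against 2 cannot give a two-sided p under 0.333, so each p rests on the spread that limma shares across genes. The fit was tested on simulated data: for TH to YH it called 67.5% of 200 genes changed by a log2 of 3, with 0 false calls. All members were described. Of each partner list, called genes or else the 3 with the highest mean FPKM were named. The 3 genes most like a member were taken for the 2 members with the largest range, from genes with a mean of at least 5 FPKM. Endothelial and kidney genes, SIRT6, BRMS1 and BRPF3 were named after their values were seen, as were the neighbours of HDAC6, the 6 rows nearest to it in the table. The members and lists were chosen with earlier results of these data known. The deposited table named 14256 rows, a gene-name table another 1025, and 3694 had no symbol. Tables and figures were made with Python 3.11.15, pandas 2.3.3, scipy 1.17.1 and matplotlib 3.10.9. Alternatives were another pseudocount, filter, scaling and moderation, the replicate number as a block, a fit of only the 4 libraries compared, each library left out, and, chosen after seeing the data, limma on log2(scaled reads + 1).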

Additional observations from a re-analysis of the deposited data

How the results depend on the processing

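No histone deacetylase row was called in any comparison with a pseudocount of 0.1, without the filter on low values, with at least 10 reads in at least 2 libraries, with either scaling, without the trend, with only the 4 libraries compared, or in the scaled reads (limma). Leaving out 1 library in turn, between 0 and 1 rows were called from TL to YL, from YH to YL and for the interaction: the 1 was HDAC6 without YL1. The median of the rows from TH to YH moved to -0.63 with each library brought to 1 FPKM sum, where HDAC4 turned to -0.090. With 1 library left out, HDAC6 ranged from -2.78 to 0.41 (TL to YL), from -3.09 to 0.10 (YH to YL) and from -0.20 to 3.00 (interaction), with signs turned only without YL2, as in the scaled reads without YL2 (0.43, 0.14 and -0.28). HDAC7 from TH to YH ranged from -0.86 to 0.040, turned without TH1. With 1 FPKM sum it was -1.02, and HDAC2 from TH to TL was -0.63. With a pseudocount of 0.1, HDAC8 from TH to TL was -0.75. The longer HDAC9 row ranged from -4.42 to -0.96 from TH to YH, from -3.90 to 0.44 from TL to YL, turned without YL1 and in the scaled reads (0.38, and 0.022 without YL2), and from -1.65 to 2.69 from YH to YL, turned without YH1 (-1.21) or YL2. With 1 library left out, HDAC2 from YH to YL ranged from -0.31 to 0.035, and HDAC5 from -0.14 to 0.32 (TH to YH), from -0.11 to 0.42 (TL to YL, -0.02 without YL2) and from -0.36 to 0.17 (TH to TL, 0.13 without TH2). HDAC3 (-0.63) and HDAC5 (-0.77) from TH to YH and HDAC5 from TL to YL (-0.16) turned with 1 FPKM sum, as did HDAC5 from TH to YH with median-ratio scaling (-0.035), without YH1 (-0.027) and in the scaled reads (-0.082), and from TL to YL in the scaled reads without YL2 (-0.10). Of 22 other member values, 19 changed sign in at least 1 of 385 recomputations (42 in all), and 0 became called. The cause of the turns with 1 FPKM sum and in the scaled reads was not tested.

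Over all genes the replicate numbers showed no pairing of the libraries: deviations of replicate 1 from the group means correlated at -0.0844 to 0.118 between groups over 6 pairs. Such a correlation does not show a pairing of few genes, and YH1 and YL1, both replicate 1, shared the high FPKM of the longer HDAC9 row. A batch was not tested. With the number as a block, 0 rows were called, and HDAC8 from TH to TL kept -0.48 with an adjusted p of 0.450. The interaction cannot be fitted with only the 4 libraries compared. edgeR on whole reads was not run, because a few values were not whole reads. The threshold itself leaves out log2 fold changes of 1 or less, recovery was simulated only at a log2 change of 3, and HDAC8 and HDAC9 rest on few reads.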
